A study of Caenorhabditis elegans with 24 samples.

Results

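To ask whether dyf-3 changed alone or together with other cilium genes in bcl-11 mutant nematodes, 54 genes that build or maintain sensory cilia in C. elegans were followed by name. The list was chosen by name with earlier results of these data known, and by textbook role it holds 14 genes of the intraflagellar transport (IFT) subcomplex IFT-B, 4 of IFT-A, 6 motor genes, 7 of the BBSome, 12 of the transition zone and 11 others. All 54 were found among the 19320 genes measured in the wild-type background and among the 19718 measured in the daf-2 background, and none of them had values identical to those of another gene.

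RNA was taken from whole hermaphrodites on the first day of young adulthood, after growth on an OP50 lawn at 20 °C, in 24 libraries of 6 genotypes with 4 libraries each. Wild-type animals (wt, strain N2) served as the control of the single mutants bcl-11(bon125) and bcl-11(bon144). The receptor mutant daf-2(e1370), with bcl-11 intact, was the control of its double mutants with either allele. bcl-11 encodes the nematode homolog of the BCL11 zinc-finger transcription factors, and daf-2 the insulin/IGF-1 receptor, whose reduced function is shared by all 3 genotypes of the daf-2 background, their control included. Both bcl-11 alleles were made by gene editing, are viable and were described by the study as hypomorphic: bon125 is a frameshift that leaves the C2H2 fingers in place, whereas bon144 is an in-frame deletion with insertion in a conserved domain. Each allele changes the gene in every cell of the animal, and animals without a functional bcl-11 gene are not part of these data.

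In hermaphrodites, cilia are formed by sensory neurons only, at the tips of their dendrites. Trains of IFT-B and IFT-A proteins carry cargo along the ciliary axoneme, outward by kinesin motors and back by a dynein, while the BBSome holds the train together and the transition zone at the ciliary base gates what enters. The RFX transcription factor DAF-19 switches on most of these genes, and animals that lack a working copy of a dyf gene do not fill their sensory neurons with dye from the medium.

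The values are regularized log (rlog) values on a log2 scale. This transformation shrinks differences between libraries where a gene is weakly expressed, so that a small change in such a gene is uninformative. The median standard deviation (SD) within genotypes was 0.04 for genes with a mean rlog between -2 and 1 in the wild-type background, and 0.24 for genes between 5 and 7. Only genes whose rlog averaged 3 or more across the 12 libraries of a background were therefore tested. In the wild-type background 25 of the 54 cilium genes passed this filter among 13459 genes, and in the daf-2 background 49 of the 54 passed among 14169. A change was called where the adjusted p was under 0.05 and the change exceeded 1.5-fold (limma with Benjamini-Hochberg adjustment over all genes tested).

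Sequencing depth is unknown, because the values are already normalized, and the precision is that of 4 libraries. The labels give a batch number for each library but no separate cultures, so the p-values measure the spread between these samples, which may be technical in part. The 4 bcl-11(bon144) libraries were less alike among themselves than those of wt or bcl-11(bon125). Their mean correlation with libraries of the same genotype was 0.967 to 0.981, against at least 0.991 in the other 8 libraries of their background. In the daf-2 background, replicate 4 of daf-2 had the lowest such correlation, 0.984. The mutated gene itself, bcl-11, was measured at mean rlog levels of 6.37, 6.15 and 6.65 in wt and the single mutants with bon125 and bon144, and of 7.08, 7.19 and 7.02 in daf-2 and its double mutants. Both alleles change the coding sequence, so these levels do not check the labels. In bcl-11(bon144), the mean rlog over 18 sperm genes was 4.44, 7.28, 9.12 and 4.51 in replicates 1 to 4, compared with 4.59 to 6.84 in wt and 4.66 to 6.39 in bcl-11(bon125). For the genes whose bcl-11(bon144) libraries are described below, the change with bon144 is also given without replicates 2 and 3, which had the highest sperm gene levels.

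dyf-3 (WBGene00001119), which encodes the IFT-B subunit orthologous to CLUAP1 and is needed to build full-length cilia, lies on chromosome IV from 3396581 to 3399231 on the minus strand (WBcel235). In wt, the rlog of dyf-3 was 8.66, 8.90, 8.16 and 8.50 in replicates 1 to 4. With bon125 alone it was 7.61, 7.12, 7.09 and 7.05, and with bon144 alone it was 6.16, 6.43, 6.71 and 6.15. The 3 genotypes did not overlap: every bcl-11(bon144) library lay lower than every bcl-11(bon125) library, and those lay lower than every wt library. Among all 13459 genes, 2.44% were apart from wt in this direction with bon144, 1.06% with bon125, and 1.43% between the alleles.

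From a mean rlog of 8.56 ± 0.31 in wt to 6.36 ± 0.27 in bcl-11(bon144) (SD, n = 4), dyf-3 fell by 2.19 log2 units (SE 0.19, limma, adjusted p 0.000354). It was 1 of 9 genes called among 13459 (0.0669%) and 1 of 8 called lower (0.0594%). Without replicates 2 and 3 of bcl-11(bon144) the change was -2.40 (adjusted p of limma 0.000587). A block for the replicate number left 2 calls in place of 9, and dyf-3 was among them (adjusted p of limma 0.00485). Whole animals were measured, so less RNA per cell and fewer cells expressing dyf-3 cannot be told apart.

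In bcl-11(bon125), the mean rlog of dyf-3 was 7.22 ± 0.26 (SD, n = 4), a difference of -1.34 from wt (SE 0.19) that had the smallest p of all 13459 genes and was not called (limma, unadjusted p 7.89e-06, adjusted p 0.0778). No gene was called in this comparison (0%), although 209 genes (1.55%) had an unadjusted p under 0.05. The study itself reported dysregulated genes in bcl-11(bon125) against wt, and more of them than in bcl-11(bon144). The lack of calls belongs to this fit of rlog values and does not show that no gene changed. The adjusted p of dyf-3 ranged from 0.00109 to 0.158 over the other ways of fitting that kept all libraries, and 3 of them called dyf-3. The fit without bcl-11(bon144) replicates 2 and 3 called it as well (0.0362). Leaving out 1 library at a time gave adjusted p-values of 0.0262 to 0.439, and dyf-3 was called only without bcl-11(bon144) replicate 1, where the p was 0.0262. The replicate block gave 1 call, which was not dyf-3 (adjusted p of limma 0.158). The 2 alleles share their wt libraries. Set against each other, dyf-3 was lower in bcl-11(bon144) by a difference of -0.86 that was not called (SE 0.19, adjusted p of limma 0.354), where 6 genes were (0.0446%). Without bcl-11(bon144) replicates 2 and 3 this difference was -1.07 and again not called (adjusted p of limma 0.264).

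**Figure D1:**
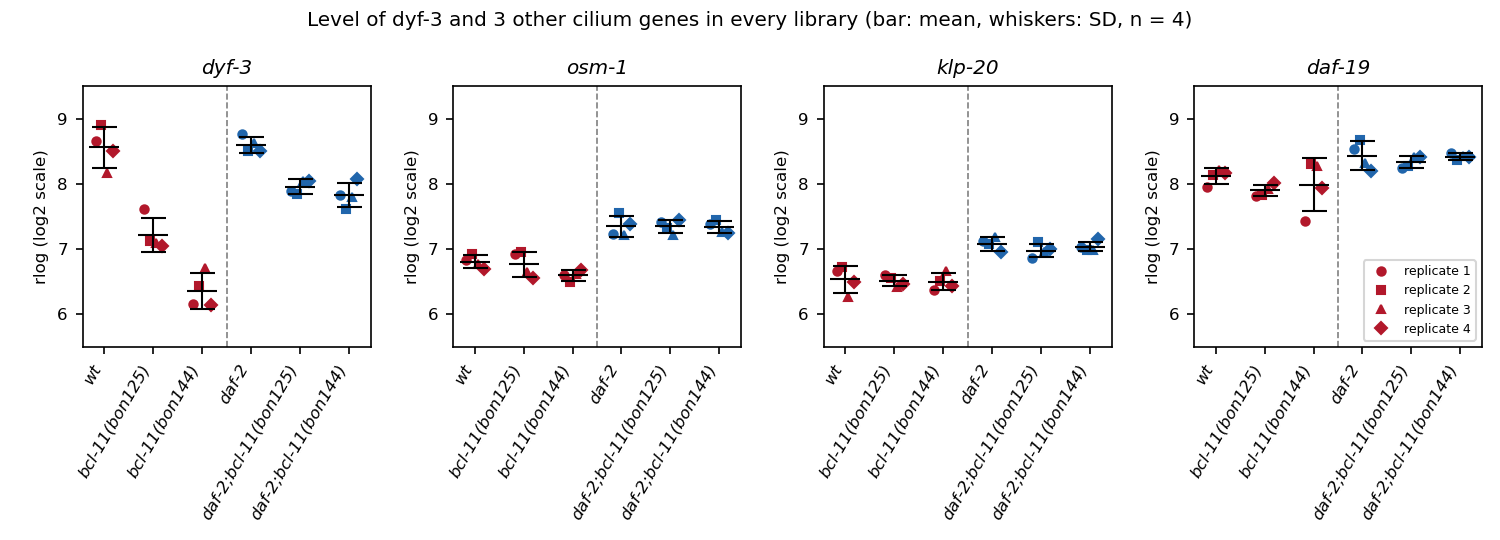
Rlog level (log2 scale) of dyf-3, osm-1, klp-20 and daf-19 in each library of the 6 genotypes, with points for libraries, horizontal bars for the mean, whiskers for the SD (n = 4), and the wild-type background in red and the daf-2 background in blue. The dyf-3 points of bcl-11(bon144) lie between 6.15 and 6.71, under all wt points, which start at 8.16.

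In the daf-2 background, the rlog of dyf-3 was 8.76, 8.50, 8.63 and 8.51 in replicates 1 to 4 of daf-2. It was 7.89, 7.85, 8.04 and 8.05 in daf-2;bcl-11(bon125), and 7.83, 7.61, 7.80 and 8.07 in daf-2;bcl-11(bon144). All double mutant libraries lay under all daf-2 libraries, and the 2 double mutants overlapped each other. The groups were apart in the lower direction for 0.755% of 14169 genes with bon125 and for 1.15% with bon144.

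When bon144 was combined with daf-2(e1370), the mean level of dyf-3 was 7.83 ± 0.19, against 8.60 ± 0.12 in the control (SD, n = 4), and it fell by 0.77 log2 units (SE 0.11, limma, adjusted p 0.0190). It was 1 of 8 genes called among 14169 (0.0565%) and the only one called lower (0.00706%). This call was less firm than the one in the wild-type background. It was lost when only these 2 genotypes were fitted (adjusted p 0.0825) and in 5 of 12 fits that left out a library, namely daf-2 replicate 1 (0.0868) or 3 (0.103), or daf-2;bcl-11(bon144) replicate 1 (0.0880), 2 (0.0683) or 3 (0.0712). Over all 12 such fits the adjusted p ranged from 0.0121 to 0.103. In daf-2;bcl-11(bon125), the mean was 7.96 ± 0.11 (SD, n = 4) and the difference of -0.64 was not called (SE 0.11, adjusted p of limma 0.168), while 2 other genes were called (0.0141%). The 2 comparisons share their daf-2 libraries. The difference of -0.13 between the double mutants was not called either (95% interval -0.37 to 0.11, adjusted p of limma 0.999), and 7 other genes were (0.0494%).

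The change of dyf-3 with bon144 was smaller in the daf-2 background than in the wild-type background, and the difference of 1.42 log2 units was called (SE 0.22, limma, adjusted p 0.00659). dyf-3 was 1 of 8 genes called for this difference among 13131 genes kept in both backgrounds (0.0609%), and of 5 genes under the replicate block (adjusted p of limma for dyf-3 0.0310). The call held in each of the 24 fits that left out 1 library, with differences of 1.31 to 1.56, and in the fit without bcl-11(bon144) replicates 2 and 3, with a difference of 1.63 (adjusted p of limma 0.00201). For bon125 the difference was 0.70 and was not called (SE 0.22, limma, unadjusted p 0.00457, adjusted p 1.00), and none of the 13131 genes was (0%). The rlog values of the 2 backgrounds were normalized separately. Effects that differ between backgrounds therefore cannot be told apart from effects that the separate processing scaled differently. The SD of dyf-3 within genotypes was 0.26 to 0.31 in the wild-type background and 0.11 to 0.19 in the daf-2 background, while the fit took a common spread.

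None of the other cilium genes was called in any of the 8 comparisons, which covered each mutant against its control, the alleles against each other and the differences between backgrounds. None reached an adjusted p under 0.05 under any alternative fit, where the smallest was 0.314. Among all genes tested, between 0% and 0.0669% were called in each comparison. The absence of calls among so few cilium genes is close to that share. Against wt, the changes of the 24 other genes tested ran from -0.26 (dyf-7) to 0.25 (bbs-8) with bon125 and from -0.28 (dyf-7) to 0.19 (che-10) with bon144. Against daf-2, the changes of the 48 others ran from -0.21 (osm-3) to 0.31 (hyls-1) with bon125 and from -0.18 (bbs-2) to 0.21 (hyls-1) with bon144. Their medians were -0.05, -0.02, -0.04 and -0.02 in this order, beside -0.01, 0.01, 0.00 and 0.00 over all genes tested. Without replicates 2 and 3 of bcl-11(bon144), the changes of the 24 other genes with bon144 against wt ran from -0.46 (dyf-7) to 0.29 (che-10) with a median of -0.11, and 0 were called (smallest adjusted p of limma 0.337).

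A p above the threshold does not show that these genes stayed the same, so the 95% intervals of their changes were examined. Not one of these intervals reached the change of dyf-3 in the same comparison, in 24 of 24 genes with each allele against wt and in 48 of 48 with each allele against daf-2. By change, dyf-3 ranked 2 from the lowest among 13459 genes in each single mutant. Among 14169 genes in the double mutants it ranked 81 with bon125 and 10 with bon144. Few genes of any kind fell as far, so missing its change does not set the cilium genes apart from others. The intervals lay wholly within a 1.5-fold change in either direction for 22 and 23 of the 24 genes in the single mutants with bon125 and bon144, and for 47 and 48 of the 48 genes in the double mutants. Without bcl-11(bon144) replicates 2 and 3, this held for 19 of the 24 genes in that genotype. They extended by a median of 0.27 on either side of the estimate in the wild-type background and by 0.22 in the daf-2 background. Since rlog shrinks the differences between libraries for weak genes, the intervals of the genes close to the filter may be too narrow, and their coverage was not tested. The interval counts were not made over all genes.

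**Figure D2:**
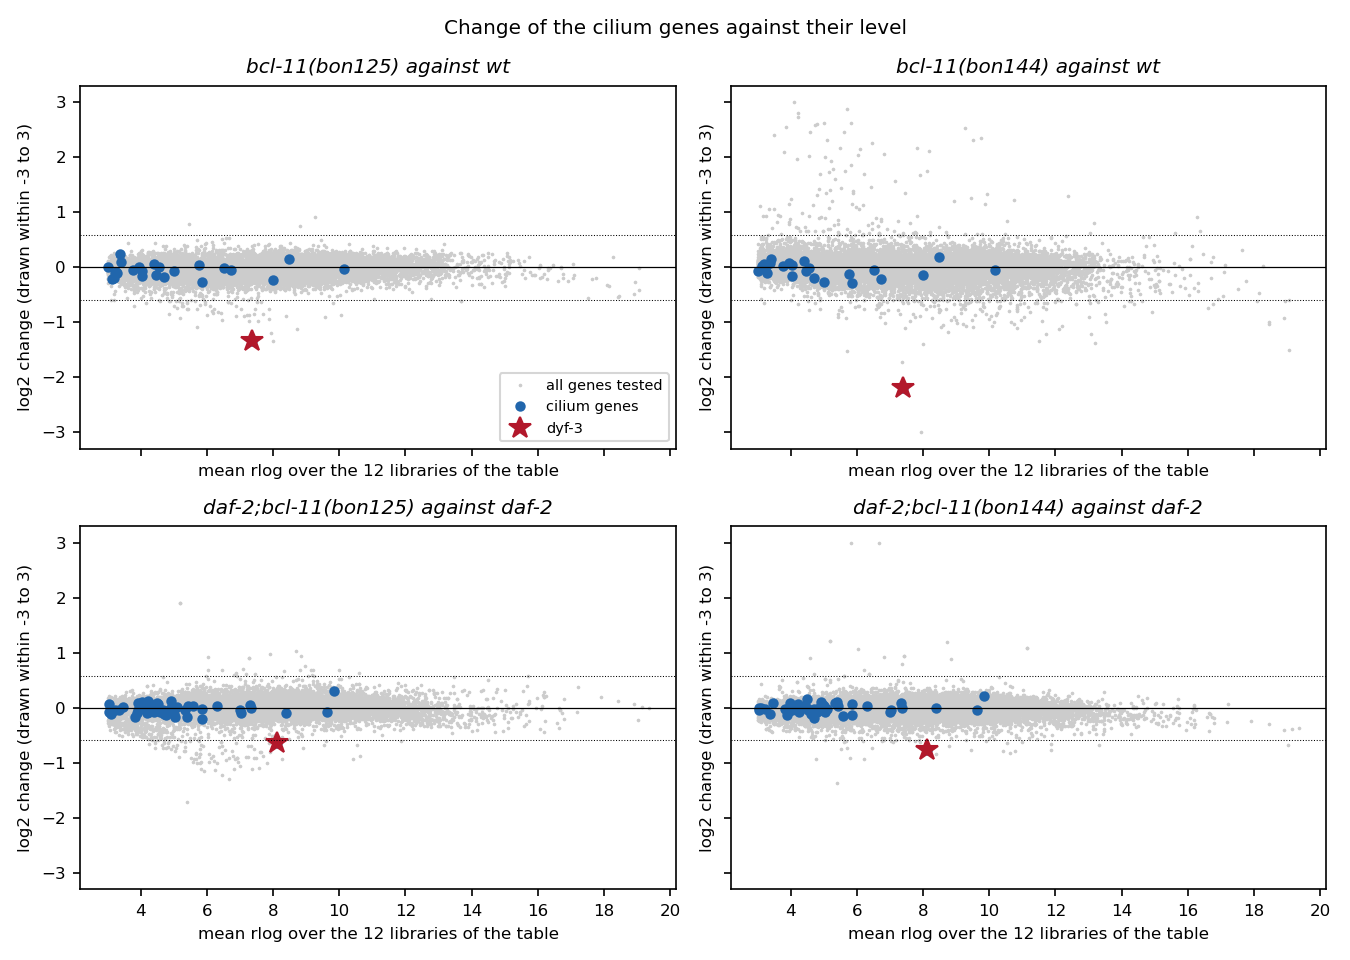
Log2 change of each tested gene (vertical axis) by its mean rlog (horizontal axis) in the 4 comparisons of a mutant with its control, with cilium genes drawn over all genes and values beyond -3 or 3 drawn at that limit. dyf-3 lies at -1.34 and -2.19 in the single mutants and at -0.64 and -0.77 in the double mutants, and the other cilium genes lie between -0.28 and 0.31.

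The other 13 IFT-B genes were examined first, since their products assemble with DYF-3 into a single complex. Only dyf-1 and osm-1 passed the filter in the wild-type background. osm-1, which encodes the largest IFT-B subunit, had an rlog of 6.84, 6.93, 6.77 and 6.70 in replicates 1 to 4 of wt and of 6.61, 6.49, 6.62 and 6.68 in bcl-11(bon144). These groups were apart by a narrow margin, as for 2.44% of all genes tested in this direction. The difference of -0.21 was not called (SE 0.13, adjusted p of limma 0.792), nor was that of -0.16 without replicates 2 and 3 of the mutant (0.725). In bcl-11(bon125) the levels of osm-1 ranged from 6.56 to 6.95 and overlapped those of wt. dyf-1, needed for the kinesin OSM-3 to move the train, differed from wt by -0.13 with bon125 and by -0.07 with bon144.

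In the daf-2 background 12 of these 13 genes were tested, and their changes ran from -0.16 (ift-74) to 0.13 (osm-6) with bon125 and from -0.15 (dyf-1) to 0.15 (ift-81) with bon144. ift-74 and ift-81 encode the coiled-coil pair that binds tubulin. The rlog of ift-81 was 4.38, 4.52, 4.35 and 4.40 in daf-2 and 4.73, 4.46, 4.60 and 4.47 in daf-2;bcl-11(bon144), which overlapped (SE 0.09, adjusted p of limma 1.00). That of ift-74 was 3.74, 3.93, 4.08 and 3.82 in daf-2 and 3.65, 3.96, 3.68 and 3.63 in daf-2;bcl-11(bon125), which overlapped as well (SE 0.09, adjusted p of limma 1.00). The other subunits che-2, che-13, dyf-6, dyf-11, ift-20, ifta-2 and osm-5 lay between -0.11 and 0.08 in both double mutants. dyf-13 was below the filter in both backgrounds and che-2, che-13, dyf-6, dyf-11, ift-20, ift-74, ift-81, ifta-2, osm-5 and osm-6 in the wild-type background, so 11 IFT-B genes have no test there. In a fit without the filter, these 11 genes differed from wt by -0.10 (ift-74) to 0.06 (osm-5) with bon125 and by -0.02 (dyf-11) to 0.15 (ift-74) with bon144.

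The IFT-A genes dyf-2, daf-10, che-11 and ifta-1, whose products serve the return of the train to the ciliary base, showed changes of at most 0.17 in size. ifta-1 differed by -0.17 and 0.10 in the double mutants with bon125 and bon144, and by 0.00 and -0.01 in the single mutants. Among the motor genes, osm-3, the kinesin that extends the distal part of the cilium, differed by -0.21 with bon125 and 0.06 with bon144 against daf-2. klp-20 and kap-1, subunits of the second IFT kinesin, lay between -0.12 and 0.04 in all 4 comparisons, while their partner klp-11 was below the filter everywhere. che-3, the heavy chain of the ciliary dynein, ran from -0.15 to 0.05. Its light intermediate chain xbx-1 had an rlog of 3.15, 2.98, 3.23 and 3.25 in daf-2 and of 2.99, 3.11, 2.97 and 3.05 in daf-2;bcl-11(bon125). The xbx-1 groups overlapped, and the difference of -0.12 was not called (SE 0.07, adjusted p of limma 1.00).

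The BBSome gene bbs-8 had the largest positive difference of any cilium gene in bcl-11(bon125). Its rlog was 3.18, 3.44, 3.15 and 3.25 in wt and 3.48, 3.62, 3.40 and 3.52 in bcl-11(bon125), higher in 4 of 4 same-numbered pairs but with overlapping groups. The difference of 0.25 was not called (SE 0.11, limma, unadjusted p 0.0456, adjusted p 1.00), and in daf-2;bcl-11(bon125) its sign was the opposite, at -0.16. bbs-2, another BBSome subunit, had an rlog of 4.63, 4.84, 4.74 and 4.85 in daf-2 and of 4.58, 4.61, 4.62 and 4.55 in daf-2;bcl-11(bon144). All libraries of daf-2;bcl-11(bon144) lay just below those of daf-2, as for 1.15% of all genes tested. The difference of -0.18 was not called (SE 0.10, adjusted p of limma 1.00). The 6 BBSome genes tested in daf-2;bcl-11(bon144) had values between -0.18 and -0.04, each under 0, and 51.7% of all genes tested had a value under 0 there. In the wild-type background only bbs-5 and bbs-8 were tested, and bbs-5 differed by -0.17 and -0.19 from wt.

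The transition zone genes, which include the MKS and NPHP modules named after human ciliopathies, lay between -0.13 and 0.16 in all 4 comparisons. nphp-4 had an rlog of 3.35, 3.20, 3.37 and 3.35 in wt and of 3.50, 3.39, 3.48 and 3.54 in bcl-11(bon144). Here the mutant libraries all lay higher, as for 1.69% of all genes tested, and the difference of 0.16 was not called (SE 0.08, adjusted p of limma 0.752), nor was that of 0.20 without mutant replicates 2 and 3 (0.437). In the daf-2 background nphp-4 differed by 0.02 and 0.05. The changes of mksr-1 and mks-6 were -0.10 or smaller in size against wt, and those of mks-1, mks-2, mks-3, mksr-2, tmem-107 and tmem-231 were measurable in the daf-2 background only, from -0.13 (mksr-2 with bon125) to 0.07 (tmem-231 with bon144). mks-5 and nphp-1 lay between -0.11 and 0.05, and tmem-17 was below the filter in both backgrounds.

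Among the remaining cilium genes, daf-19, the RFX factor, was expressed at a mean rlog of 8.12 ± 0.12 in wt, 7.90 ± 0.09 with bon125 alone and 7.99 ± 0.41 with bon144 alone (SD, n = 4). Its differences of -0.23 and -0.14 from wt were not called (SE 0.17 each, adjusted p of limma 1.00 and 0.920), and those from daf-2 were -0.10 and -0.01. Without bcl-11(bon144) replicates 2 and 3, the difference of daf-19 with bon144 from wt was -0.44 and not called (adjusted p of limma 0.346). dyf-7, a zona pellucida domain protein that anchors dendrite tips during development, had the lowest change beside dyf-3 in both single mutants. The rlog of dyf-7 was 6.11, 5.95, 6.07 and 5.94 in wt, 5.87, 6.10, 5.41 and 5.66 in the bon125 mutant, and 5.60, 5.73, 6.08 and 5.52 in the bon144 mutant. Both mutants overlapped wt, with SEs of 0.17 (adjusted p of limma 1.00 and 0.787), and without bon144 replicates 2 and 3 its change with bon144 was -0.46 (adjusted p of limma 0.363). Against daf-2 the changes of dyf-7 were 0.05 and 0.09.

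dyf-17 had an rlog of 4.95, 4.95, 5.42 and 5.10 in wt and of 4.75, 4.90, 5.06 and 4.67 in bcl-11(bon144). It was lower in 4 of 4 same-numbered pairs with overlapping groups, and its change of -0.26 was not called (SE 0.13, adjusted p of limma 0.741), nor was that of -0.39 without mutant replicates 2 and 3 (0.341). The small GTPase gene arl-3 had an rlog of 3.16, 3.30, 2.99 and 3.40 in wt and of 3.05, 2.98, 2.99 and 2.94 in bcl-11(bon125). For che-12, a HEAT-repeat protein of the cilium, the values were 3.01, 3.27, 3.27 and 3.45 in wt and 3.08, 3.10, 2.99 and 3.00 in bcl-11(bon125). Both genes overlapped between wt and mutant, with differences of -0.22 (SE 0.10) and -0.20 (SE 0.12) that were not called (adjusted p of limma 1.00 for each).

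hyls-1, a centriole protein needed at the ciliary base, was the cilium gene with the highest level per kilobase of exon in wt. The rlog of hyls-1 was 9.90, 9.43, 9.60 and 9.72 in daf-2, 9.86, 9.89, 10.16 and 9.97 in daf-2;bcl-11(bon125), and 10.15, 9.62, 9.68 and 10.02 in daf-2;bcl-11(bon144). Both mutants overlapped daf-2, and the differences of 0.31 and 0.21 were not called (SE 0.13 each, limma, unadjusted p 0.0388 and 0.149, adjusted p 1.00 each). che-10, the rootletin of the ciliary rootlet, and arl-13, a ciliary membrane GTPase, lay between -0.15 and 0.19 in all 4 comparisons. Of the kinase genes, dyf-5 differed by 0.01 and 0.09 from daf-2, and dyf-18 was below the filter throughout. dyf-19, a transition fiber gene, differed by 0.06 and -0.01 from daf-2.

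**Figure D3:**
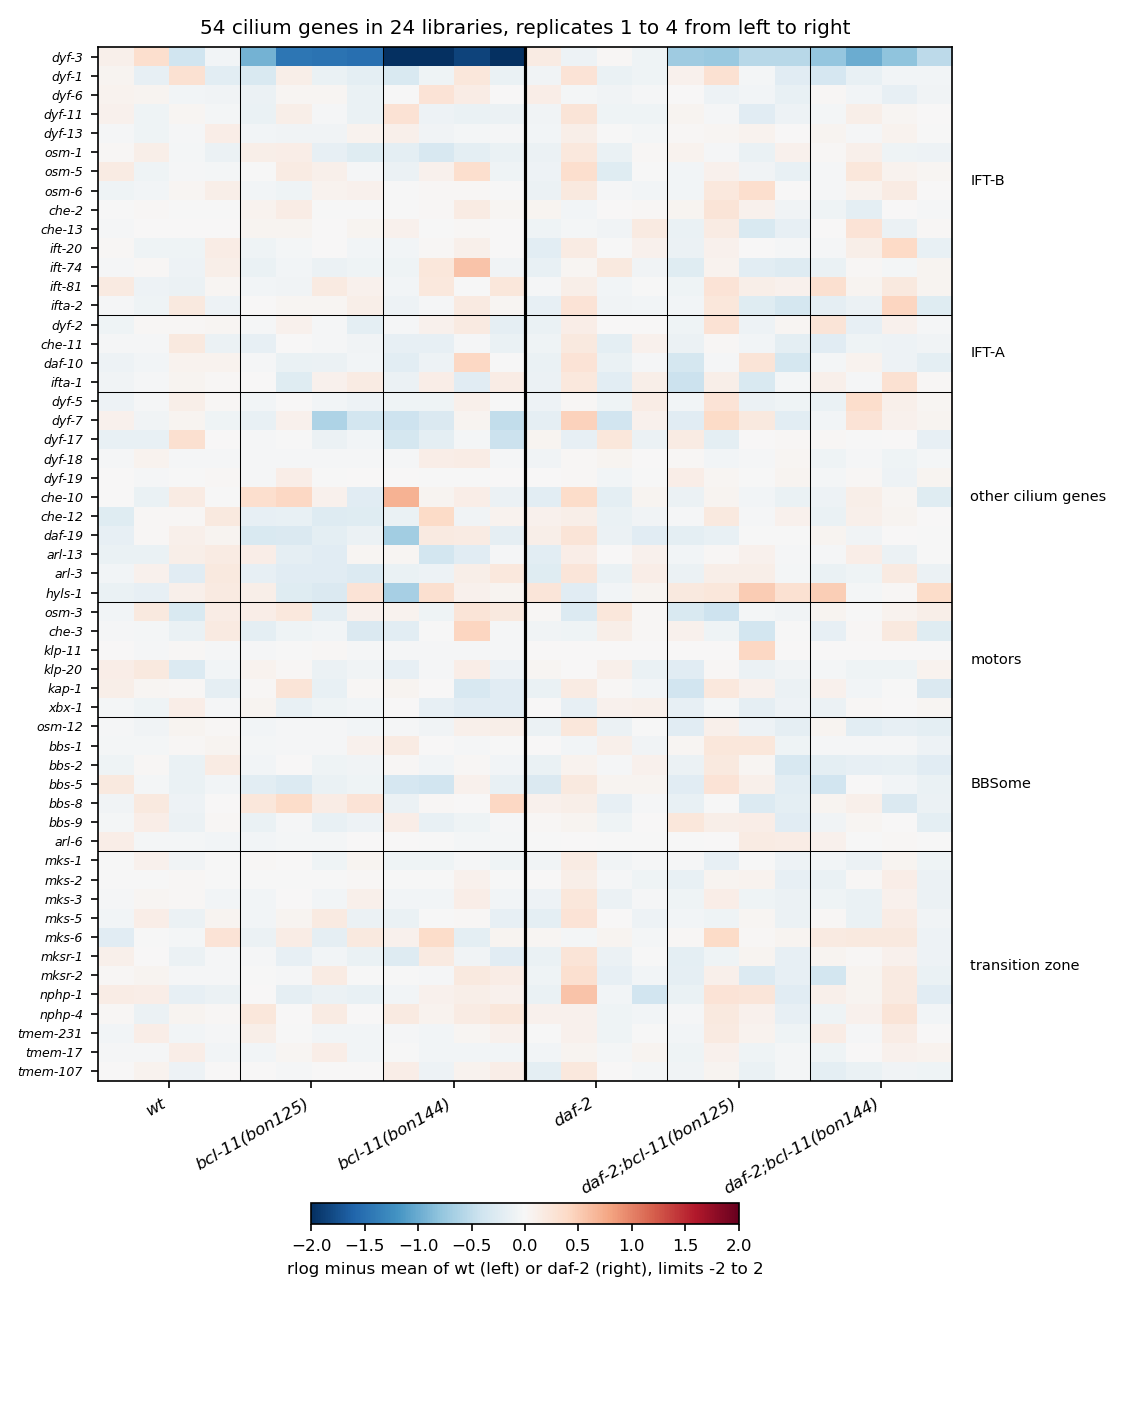
Rlog of the cilium genes in each library as the difference from the mean of their control genotype (wt or daf-2, color scale in log2 units), with genes grouped by role in rows and libraries in columns. The row of dyf-3 is low in all 16 libraries with a bcl-11 allele. Next in this count are che-11 of IFT-A, below its control mean in 15 of the 16, and daf-10 of IFT-A and the RFX gene daf-19, in 13 of 16 each. In the wild-type background che-11 was below the filter, so its differences there cannot be judged. Libraries of a background share their control mean, and the count was not made over all genes.

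Markers of the cells that bear cilia were compared in the same way. Of 39 genes of ciliated sensory neurons that do not build the cilium, 14 were tested against wt and 20 against daf-2, and 0 were called in the 4 comparisons. Their median changes were -0.03 and 0.00 against wt, and 0.00 and -0.03 against daf-2, with bon125 and bon144 in turn. Markers of all neurons were not called either, with medians of -0.01 and -0.01 over 24 genes against wt and of -0.07 and -0.06 over 25 genes against daf-2. The mean rlog of the neuron list ranged from 7.24 to 7.33 over the wt libraries and from 7.05 to 7.38 over those of bcl-11(bon144). Of 11 genes of the glia around the sense organs, 0 were called, with medians of -0.12, -0.02, -0.05 and -0.08. Among all genes tested, 0% and 0.0669% were called against wt and 0.0141% and 0.0565% against daf-2, with bon125 and bon144 in turn. With calls so rare, their absence from these short lists does not show that the cell types were unchanged.

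The sperm gene level differed widely between the libraries in which dyf-3 was measured. The 16 sperm genes tested against wt had a median change of -0.60 with bon125 and of 0.47 with bon144. The 17 tested against daf-2 had -0.72 and -0.38. Of these sperm genes 0 were called, where at most 0.0669% of all genes tested were. Against wt, dyf-3 was lower with either allele, and the sperm genes were lower with bon125 and higher with bon144. Against daf-2, dyf-3 and the sperm genes were both lower with either allele. Within bcl-11(bon144), replicates 2 and 3 had both the highest sperm gene levels and the highest dyf-3 levels, 6.43 and 6.71. Without these libraries the change of dyf-3 against wt was -2.40. In wt, replicate 3 had the highest sperm gene level (6.84) and the lowest dyf-3 level (8.16). In bcl-11(bon125), replicate 1 had the lowest sperm gene level (4.66) and the highest dyf-3 level (7.61). The part of sperm content in the dyf-3 levels was not tested.

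The likeness of the other cilium genes to dyf-3 from library to library was examined next. Over the 24 libraries, with each gene centered on its mean in its background, the Pearson correlation with dyf-3 had a median of 0.06 over the 24 other cilium genes kept in both backgrounds and of -0.01 over all 13130 genes. The values ran from -0.46 (nphp-4) to 0.43 (dyf-17 and osm-1), and 0 of the 24 lay above 0.47, the 95th percentile of all genes, while nphp-4 lay below the 5th percentile, -0.43. Those next to dyf-17 and osm-1 were bbs-5 and klp-20 (0.36 each) and daf-19 (0.30). The genes with the highest correlations were F25E5.1 (0.83), C25G4.7 (0.81), Y55F3AM.11 (0.79), F13H8.8 (0.79) and Y55F3BR.2 (0.77), none of which is on the cilium list. These points share genotypes, batches and normalization, so the correlations are a description.

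When the deviations from the genotype means were correlated instead, which leaves out the differences between genotypes, the median was 0.06 again, beside 0.00 over all genes. Here klp-20 reached 0.79 and osm-3 reached 0.53, where the 95th percentile of all genes was 0.54. The first 3 of the 5 genes named above were called lower in bcl-11(bon144), and none of them was called in the double mutants. They were picked by their correlation with dyf-3 over these same libraries. A lower level in bcl-11(bon144) is thus built into the choice in part, and their p-values are a description. With bon144, F25E5.1 fell by 1.17 against wt (adjusted p of limma 0.0327) and differed by -0.02 against daf-2, C25G4.7 fell by 1.53 (adjusted p 0.0290) and differed by -0.05, and Y55F3AM.11 fell by 1.39 (adjusted p 0.0218) and differed by -0.14. Without bcl-11(bon144) replicates 2 and 3 none of these 3 genes was called against wt, with changes of -1.36 for F25E5.1 (adjusted p of limma 0.0648), -1.62 for C25G4.7 (0.0544) and -1.16 for Y55F3AM.11 (0.113).

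**Figure D4:**
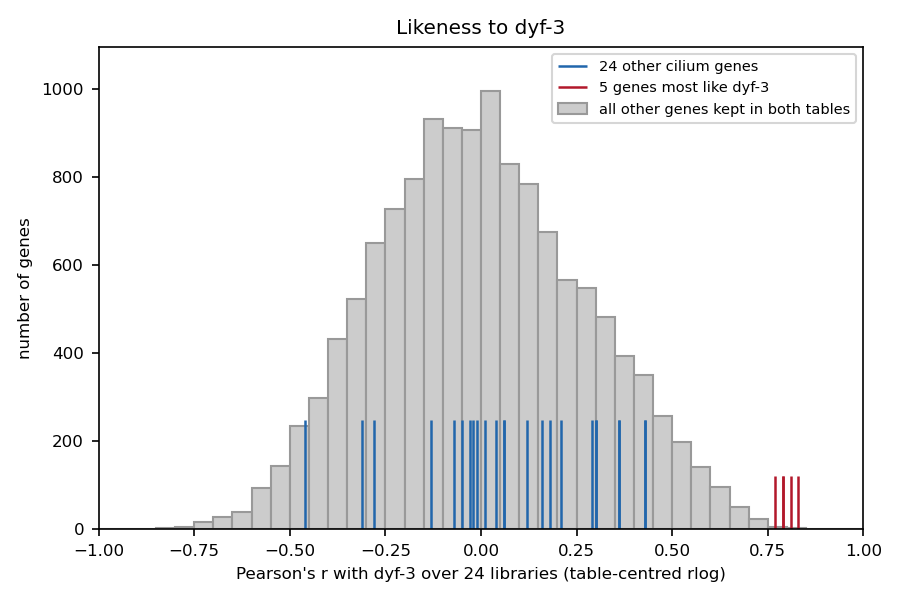
Distribution of the Pearson correlation with dyf-3 over 24 libraries, for all genes and for the 24 other cilium genes kept in both backgrounds (horizontal axis, correlation, vertical axis, number of genes). Gray bars count all genes, and colored lines mark the single cilium genes and the 5 genes most like dyf-3. The cilium genes lie between -0.46 and 0.43, and the 5th and 95th percentiles of all genes are -0.43 and 0.47.

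No tested gene next to dyf-3 on chromosome IV was called. No annotated gene overlaps dyf-3. The nearest tested gene, pdhb-1, which encodes a subunit of pyruvate dehydrogenase, starts 440 bp away on the other strand, and its level differed by 0.05 and 0.10 from wt and by -0.17 and -0.10 from daf-2 with bon125 and bon144, with no call. Of the next tested neighbors, mai-2 lay between -0.02 and 0.09 and B0546.4 between -0.13 and -0.03. grd-13, a gene of the hedgehog-related family, differed by 0.43 in bcl-11(bon144) (SE 0.21, adjusted p of limma 0.741), by -0.03 there without replicates 2 and 3, and by at most 0.18 in size elsewhere. C04C3.14, 47 bp from dyf-3, was below the filter, with mean rlog levels of 0.82 to 1.75. The libraries are not stranded.

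Finally, the levels in daf-2 and wt were set side by side. The backgrounds were normalized separately, so these differences have no test and a shift between the tables cannot be told apart from a shift in the animals. Of the 54 cilium genes, 52 had a higher mean rlog in daf-2 than in wt. The median difference was 1.59, while the median over all 18489 genes in both tables was 0.09. dyf-3 was among the few genes of the list with nearly equal levels, 8.56 in wt and 8.60 in daf-2. Only hyls-1 (-0.52) and dyf-17 (-0.18) were lower in daf-2.

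The largest such differences belonged to weakly expressed genes of the wild-type background, mks-2 (-0.66 in wt and 3.25 in daf-2) and the IFT-B gene che-13 (1.44 and 5.04). Weak genes differed more in general, but the cilium genes lay above the genes of their level. For a mean rlog between -2 and 1 in the wild-type background the median difference was 3.07 over 7 cilium genes and 0.71 over all genes, and between 1 and 3 it was 2.13 over 22 cilium genes and 0.31 over all. Between 3 and 5 it was 1.08 over 17 and 0.30 over all, and from 5 upward 0.54 over 7 and -0.03 over all. By role the median was 1.67 for IFT-B, 1.59 for IFT-A, 1.03 for the motors, 2.15 for the BBSome, 1.74 for the transition zone and 1.26 for the others.

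The same comparison within bcl-11 mutants gave like values, with a median of 1.54 over the 54 genes between daf-2;bcl-11(bon125) and bcl-11(bon125) and of 1.53 between daf-2;bcl-11(bon144) and bcl-11(bon144). Here dyf-3 was also higher with daf-2(e1370), at 7.96 beside 7.22 and at 7.83 beside 6.36. The median difference between daf-2 and wt was 0.48 over 34 genes of ciliated sensory neurons, 0.35 over 25 genes of all neurons, 0.10 over 14 genes of glia, -0.49 over 17 germline genes and -0.46 over 16 genes of the embryo. It was 0.11 over 18 sperm genes, -0.06 over 11 intestine genes and 0.04 over 10 genes of body wall muscle. The part of these cell types in the higher cilium gene levels was not tested.

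**Figure D5:**
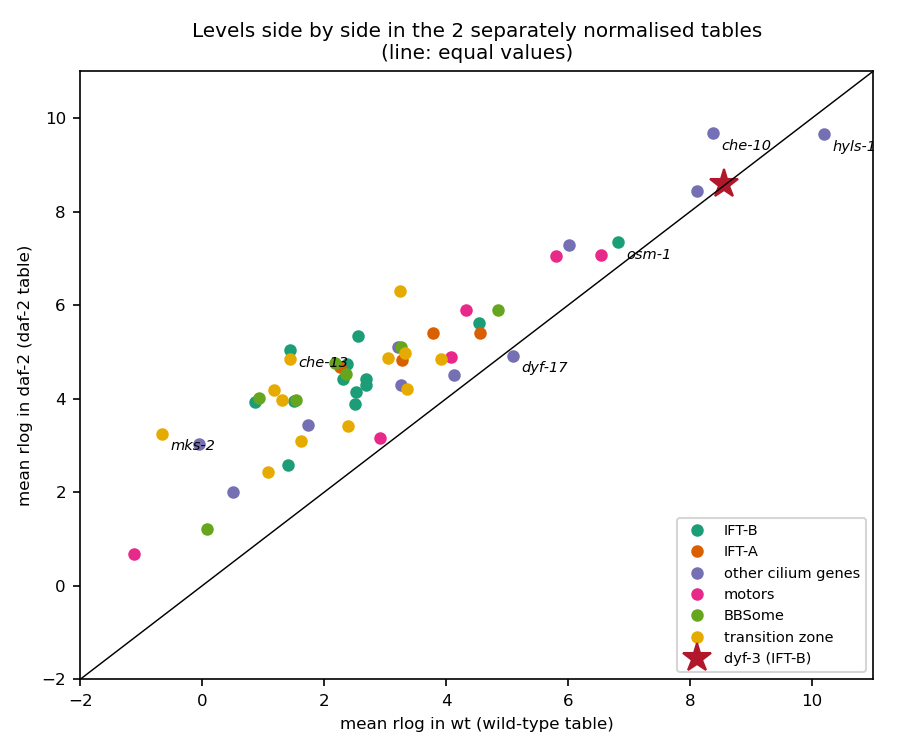
Mean rlog (log2 scale) of the 54 cilium genes in daf-2 (vertical axis) and in wt (horizontal axis), 4 libraries each, with the line of equal levels. Only hyls-1 and dyf-17 lie under the line, and dyf-3 lies next to it at 8.56 and 8.60.

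Per kilobase of exon, on the log2 scale, dyf-3 had a mean level of 8.08 in wt and was second on the list to hyls-1 (9.07), ahead of daf-19 (6.47), che-10 (5.62) and klp-20 (5.36). The highest IFT-B gene after it was osm-1 at 4.22, and the 12 other IFT-B genes ranged from -0.38 (che-2) to 2.87 (dyf-1). In daf-2, dyf-3 stood at 8.12, again second to hyls-1 (8.54), and the IFT-B genes next to it were ift-20 (5.07) and ifta-2 (5.06). Differences in level between genes have no test here.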

How the data were processed

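RNA of 24 libraries from whole adults was measured by Smart-seq2, a full-length, non-stranded protocol. Per the submitters' processing notes and the study's methods, reads were demultiplexed with bcl2fastq 2.20 and assigned with kallisto 048.0 to WBcel235 transcripts (Ensembl 109). From gene counts normalized for library size the authors made the deposited log2-scale rlog values, in 2 tables normalized separately. Tests were run within a table. Groups, replicate numbers and batches were taken from the sample labels, and 0 columns belonged to no sample.

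The members and all gene lists were chosen with earlier results of these data known. Names, positions and exon lengths came from the Ensembl 115 annotation of the same assembly. Genes averaging an rlog of 3 or more were fitted with 3 genotype means per table in limma 3.58.1 (R 4.3.3, moderated variances with a trend). Differences between backgrounds were fitted over all 6 genotypes, each effect within its table. P-values are two-sided and Benjamini-Hochberg adjusted. A gene was called at an adjusted p under 0.05 and an absolute log2 change above 0.585, the thresholds the study states. Fits were tested on simulated data. Levels per kilobase are rlog minus the log2 of the exon length.

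Values in each library are given for dyf-3, for the 3 other cilium genes with the smallest unadjusted p in each mutant against its control, and for osm-1, chosen after its values were seen. The 5 genes and the 5 cilium genes most correlated with dyf-3, and its 2 nearest tested neighbors on either side, were named by the same rule. Replicate numbers equal the batch numbers of the labels, and same-numbered libraries were set in pairs across genotypes on that basis alone. Deviations of same-numbered libraries correlated with a mean r of 0.0304 to 0.243 over the 6 pairs of genotypes within tables. Alternatives were a block for the replicate number, other filters, variance models, library weights, centering and normalization, and leaving out libraries. Promoter sequences were not analyzed here.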

Additional observations from a re-analysis of the deposited data

Results flagged for a closer look

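In 5 of 72 groups of 4 libraries (12 cilium genes in 6 genotypes), 1 library lay far from the other 3. Chance alone gives about 1 in 20 such groups. dyf-3 was highest in replicate 1 of bcl-11(bon125), at 7.61 beside 7.05 to 7.12. arl-3 was highest in replicate 3 of daf-2;bcl-11(bon144), at 5.29 beside 4.98 to 5.02, and dyf-17 was lowest in replicate 4 of that genotype, at 4.76 beside 4.91 to 4.94. nphp-4 was lowest in replicate 2 of wt, at 3.20 beside 3.35 to 3.37, and ift-74 was highest in replicate 2 of daf-2;bcl-11(bon125), at 3.96 beside 3.63 to 3.68. These values are rlog levels.

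The effect of bon144 on dyf-3 differed between the backgrounds by 1.42 log2 units (SE 0.22, limma, adjusted p 0.00659), being smaller with daf-2(e1370). The backgrounds were normalized separately, and the part of this processing in the difference was not tested.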

How the results depend on the processing

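No cilium gene other than dyf-3 was called under any alternative, and dyf-3 stayed lower in every fit. Its call in bcl-11(bon144) and that of the difference of the bon144 effect held in all alternatives. With the replicate number as a block, the calls over all genes became 1 in bcl-11(bon125), 2 in bcl-11(bon144), 3 between the alleles and 5 for the difference of the bon144 effect, and no call of a cilium gene changed. With only the 2 genotypes compared, dyf-3 was called in bcl-11(bon125) (-1.34, limma, adjusted p 0.0275, 4 calls, 1 cilium gene) and lost in daf-2;bcl-11(bon144) (-0.77, adjusted p 0.0825, 3 calls, 0 cilium genes), and 1 gene was called in bcl-11(bon144) and 1 between the alleles. Library weights called dyf-3 in bcl-11(bon125) (-1.49, adjusted p 0.00109, 4 calls, 1 cilium gene) and gave 11 calls between the double mutants and 3 and 15 for the differences of the bon125 and bon144 effects. Centering on the neuron list did the same (-1.32, adjusted p 0.0349, 3 calls, 1 cilium gene), with 5 calls in bcl-11(bon144), 3 between the alleles, 11 between the double mutants and a median correlation with dyf-3 of -0.06 in place of 0.06. Centering on the median gave 11 calls between the double mutants, quantile normalization 3 between the alleles and 11 between the double mutants, and a minimum mean rlog of 5 gave 5 for the difference of the bon144 effect. The cause was not tested. Without bcl-11(bon144) replicates 2 and 3, chosen after seeing the data, there were 2 calls each in bcl-11(bon125) (dyf-3 -1.34, adjusted p 0.0362, 1 cilium gene), in bcl-11(bon144) and between the alleles.

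When single libraries were left out, 0 to 4 genes were called in bcl-11(bon125) (0 to 1 cilium genes, dyf-3 -1.47 to -1.22), 1 to 17 in bcl-11(bon144) (dyf-3 -2.33 to -2.08), 1 to 16 between the alleles, 2 to 4 in daf-2;bcl-11(bon125) (dyf-3 -0.67 to -0.59), 3 to 6 in daf-2;bcl-11(bon144) (0 to 1 cilium genes, dyf-3 -0.85 to -0.70), 3 to 11 between the double mutants, and 0 to 1 and 4 to 10 for the differences of the bon125 and bon144 effects. Depth is unknown, and changes of cilium genes with a mean rlog under 3, which were 29 of 54 in the wild-type background, cannot be judged from these values.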

Other observations

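A further list of 51 cilium genes (tubulins, tubulin-modifying enzymes and proteins of male or amphid cilia among them) was chosen with results known, and 43 of its names were matched. Of the 19 tested against wt, 0 were called, with median changes of 0.03 with bon125 and 0.12 with bon144. Of the 29 tested against daf-2, 0 were called, with medians of -0.02 and 0.00. Calls were rare over all genes tested as well, at most 0.0669% in these comparisons. Between daf-2 and wt, without a test, the median difference over 39 of these genes was 0.46, with 26 of 39 higher in daf-2.

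In daf-2 and in daf-2;bcl-11(bon125), replicate 2 had the highest cilium gene levels of its genotype, with a median deviation from the genotype mean of 0.14 and 0.11 over the 48 cilium genes other than dyf-3. In daf-2;bcl-11(bon144), replicate 3 had the highest, at 0.04.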
